A study of Aspergillus fumigatus with 12 samples.

Results

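This account follows 114 genes of fungal mycelium that were higher with the azo dye Ponceau 2R given alone, stayed near the control level with sinapic acid given alone, and were still higher when both compounds were present. They are 114 of the 10276 genes in the deposited table, or 1.11%. Levels are FPKM, fragments scaled to gene length and to the size of the library, and differences are between group means of log2(FPKM + 1). A member had a mean of 5 to under 1000 FPKM over the 12 libraries and a dye minus control difference of at least 0.8. Its sinapic acid minus control difference was under 0.4 in size, and its difference of both compounds minus the dye alone was above -0.6. The members were thus chosen by the measured means of all 4 groups. The differences below describe that choice, and members called by a test are counted or named only as a description. The share of all tested genes stands beside each count of the main fit, on log2(FPKM + 1) over all 12 libraries, where first given. Counts with other settings, libraries left out or an unadjusted p have no such share. Whether their changes are particular to the members cannot be read from them.

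White-rot fungi such as Trametes hirsuta degrade lignin with secreted oxidative enzymes, mainly laccases and peroxidases, and the same enzymes can attack many synthetic dyes. Azo dyes carry aromatic rings joined by nitrogen-nitrogen double bonds. Sinapic acid is a plant phenolic acid close in structure to lignin building blocks, and small phenols of this kind can carry electrons between laccase and compounds that the enzyme oxidizes poorly by itself.

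Mycelium was sequenced from 4 groups of 3 libraries: basic medium with the dye and sinapic acid (P2R+SA), with the dye (P2R), with sinapic acid (SA), and with neither (CK). The series title names Trametes hirsuta strain X-13 and asks how sinapic acid enhances decolorization of the dye, whereas the organism field of every sample reads Aspergillus fumigatus. The labels give neither a dose nor word on whether the replicates were grown as separate cultures. The design text places all groups at 48 h, but in each single-library file the header carries the number 48 for P2R+SA and SA and 36 for P2R and CK. Headers of P2R+SA hold a further 4 that no source explains. If that number is a time in hours, a difference between groups with and without sinapic acid cannot be told apart from a difference in time, while P2R minus CK and P2R+SA minus SA each lie within 1 number.

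The genes carry IDs only. None of them matched an Aspergillus fumigatus table of 10086 genes (0 matches), so no name, function, position or sequence is given for any member, and the label mycelium could not be checked against marker genes. Each library held 35843618 to 39336624 fragments in genes, recovered from the steps between FPKM values. The shallowest value of any member rests on 51 fragments, and the median over members of the lowest library is 1275 fragments. Intervals from such counts would cover counting error only, so the spread between libraries is used instead.

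Libraries of the same group were not equally close over these genes. For most members, P2R+SA replicate 1 and SA replicate 2 lay below the other libraries of their groups, and P2R replicate 2 lay above its own, as set out after the group comparisons. The medians of the group differences that include these libraries are therefore also given without them.

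Selection took place in 3 steps. Of 7216 genes in the FPKM range, 574 had a P2R minus CK difference of at least 0.8, and 202 of those also had an SA minus CK difference under 0.4 in size. The condition on P2R+SA minus P2R then kept 114 genes and left 88 outside. The members closest to the limits stood at 0.80 for P2R minus CK, at 0.395 for the size of SA minus CK, at -0.59 for P2R+SA minus P2R and at 5.49 FPKM for the mean. Genes that met the rest of the rule and missed one limit most narrowly stood at 0.797, 0.406, -0.6004 and 4.875 FPKM, so the edges of the list separate nearly equal values. The highest member averaged 593 FPKM, and 2 further genes that met every other condition exceeded 1000 FPKM, the nearer at 1106 FPKM.

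Every member was higher with the dye alone than in the control, by the choice of the list. The ratio of mean FPKM in P2R over CK ran from 1.75 to 5.83 with a median of 2.11, and the log2 difference ran from 0.80 to 2.41 with a median of 1.01 (quartiles 0.90 and 1.22). All 114 members had every P2R library above every CK library, as did 23.9% of the 9240 genes tested, and 109 members were called higher by limma at an adjusted p under 0.05, as were 12.3% of all tested genes. The rule used this contrast, so nothing is read from these shares. In bulk mycelium, more hyphae in a given state and more RNA per hypha cannot be told apart. Without P2R replicate 2 the median difference was 0.93, and 86 members kept a difference of at least 0.8.

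A07637, with a coding length of 606 bp, had the largest difference between P2R and CK. It measured 38.6, 57.0 and 46.8 FPKM in P2R replicates 1 to 3, against 10.4, 7.35 and 6.66 FPKM in CK. The mean was 5.83-fold that of CK, and the log2 difference was 2.41 (SE 0.44). Every P2R library lay far above every CK library.

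A06081, of 330 bp, came next with 39.1, 29.7 and 31.9 FPKM in P2R, against 8.58, 7.13 and 11.5 FPKM in CK. Its log2 difference was 1.79 (SE 0.33). The groups did not overlap, and the P2R libraries were close to each other.

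The 2 most abundant members had smaller log2 differences than these. A04703, of 597 bp, measured 770, 1318 and 675 FPKM in P2R, against 521, 307 and 310 FPKM in CK, a log2 difference of 1.26 (SE 0.32). Its P2R replicate 2 and CK replicate 1 each stood well above the other libraries of their groups, yet the groups did not overlap. A02811, of 387 bp, measured 684, 901 and 682 FPKM in P2R, against 374, 311 and 339 FPKM in CK, a log2 difference of 1.14 (SE 0.17). Here too P2R replicate 2 was the highest library. The ratios of mean FPKM were 2.43 for A04703 and 2.21 for A02811, close to the median of 2.11 over the members.

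Members of low, middle and high abundance had similar median dye differences. The rule cut this difference at the same lower limit whatever the abundance, so whether its size depends on abundance cannot be read from these medians. The 32 members averaging 5 to under 20 FPKM had a median P2R minus CK of 1.15, the 48 members from 20 to under 100 FPKM one of 0.98, and the 34 members of at least 100 FPKM one of 1.03. The added 1 FPKM makes differences of the lowest members smaller than their ratios.

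**Figure D1:**
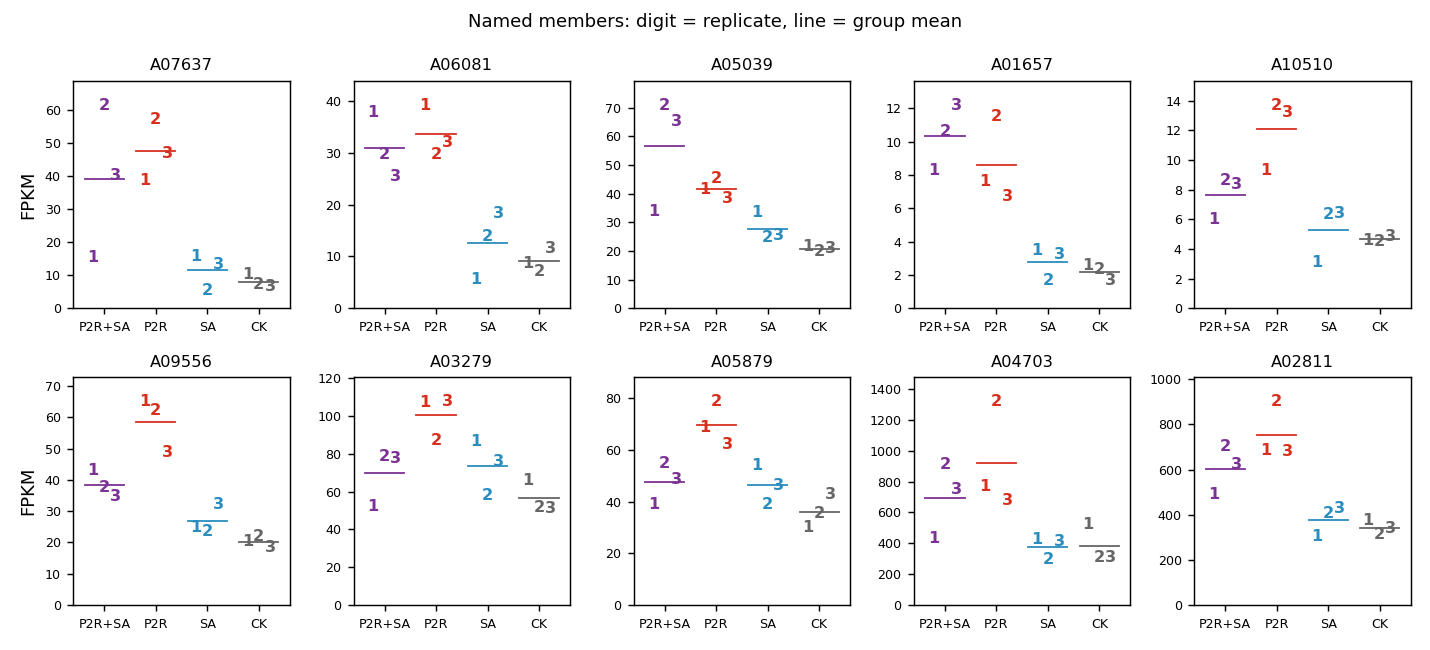
FPKM of the 10 members named in the text, 1 panel each with its own vertical axis from 0. Digits are replicate numbers, lines are group means, and groups run from P2R+SA through P2R and SA to CK. P2R lies above CK in every panel, while P2R+SA lies anywhere from above P2R (A05039) to near SA (A03279).

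With both compounds the members remained above the control, at a lower level than with the dye alone. The P2R+SA minus CK difference ran from 0.29 to 1.95 with a median of 0.75, and the ratio of mean FPKM had a median of 1.78. The rule itself holds this difference above 0.2. Of the members, 79 were called higher than CK by limma, as were 15.2% of tested genes, and 85 had every P2R+SA library above every CK library, as did 22.5% of tested genes. Leaving out P2R+SA replicate 2 lowered the 79 to 52.

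Against the dye alone, 103 members were lower in P2R+SA and 11 were higher. The difference ran from -0.59 to 0.36 with a median of -0.30, against -0.03 for all tested genes. The condition that defined the list cuts off all differences at or below -0.6. The members were also chosen for a large P2R minus CK, which favours P2R+SA values below those of P2R. Nothing is therefore read from the split of 103 and 11. By limma, 8 members were called lower (11.3% of tested genes were), and 0 were called higher (8.52% of tested genes were). The count of members called higher was also 0 at an unadjusted p under 0.05 and 0 with limma-voom. It was 8 with library quality weights, 1 without P2R+SA replicate 1, and 1 without that library and SA replicate 1 together. The 8 called members depended on single libraries: they were 4 without CK replicate 2, 4 without CK replicate 3, 1, 0 (13 at an unadjusted p under 0.05) and 3 without P2R replicates 1, 2 and 3, 15 without SA replicate 2 and 2 without P2R+SA replicate 3. Without P2R+SA replicate 1 the median difference was -0.12, and 43 members were higher in P2R+SA than in P2R instead of 11. Without P2R replicate 2 the median difference was -0.19, and 25 members were higher in P2R+SA.

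A05039 and A01657 stood highest in P2R+SA relative to P2R. A05039, of 1965 bp, measured 33.8, 70.8 and 65.0 FPKM in P2R+SA replicates 1 to 3, against 41.6, 45.2 and 38.3 FPKM in P2R. Its log2 difference was 0.36 (SE 0.23), and the groups overlapped, since replicate 1 of P2R+SA lay under all P2R libraries and replicates 2 and 3 lay over them. A01657, of 984 bp, measured 8.29, 10.6 and 12.2 FPKM in P2R+SA, against 7.61, 11.5 and 6.71 FPKM in P2R. Its difference of 0.26 (SE 0.24) also came with overlapping groups.

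A10510 and A09556 lay at the other end, just inside the limit. A10510, of 1233 bp, measured 6.01, 8.61 and 8.33 FPKM in P2R+SA, against 9.31, 13.7 and 13.2 FPKM in P2R, a log2 difference of -0.59 (SE 0.23). The groups did not overlap, and the difference did not pass. A09556, of 1527 bp, measured 43.0, 37.7 and 34.6 FPKM in P2R+SA, against 64.9, 62.0 and 48.6 FPKM in P2R. Its log2 difference was -0.59 (SE 0.15), and it was among the 8 members called lower. Its P2R+SA libraries nevertheless all lay above the CK values of 20.2, 21.9 and 18.4 FPKM.

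**Figure D2:**
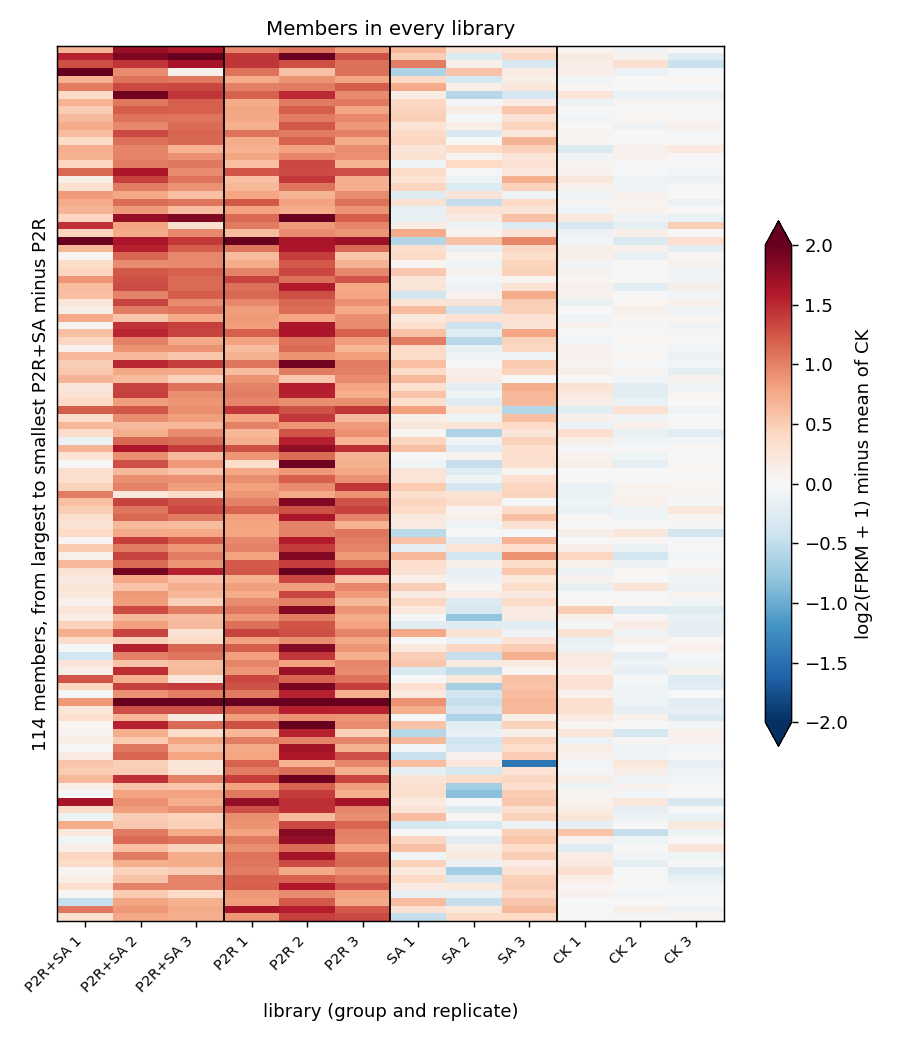
Every member (rows) in every library (columns), as log2(FPKM + 1) minus the mean of CK, with colour saturated beyond 2 in either direction. Rows run from the largest P2R+SA minus P2R difference, 0.36, to the smallest, -0.59. The columns of P2R and of P2R+SA replicates 2 and 3 are red over nearly the whole height, while that of P2R+SA replicate 1 is paler.

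The dye difference could also be read between the groups that received sinapic acid. P2R+SA minus SA was above 0 in 113 members and below 0 in 1, with a median of 0.57 (quartiles 0.46 and 0.82), against a median of 1.01 for P2R minus CK in the same genes. The members were chosen for a large P2R minus CK, which favours the larger of these medians. The ratio of mean FPKM in P2R+SA over SA had a median of 1.51. By limma, 29 members were called higher, as were 2.88% of tested genes, and 46 had groups that did not overlap, as had 8.04% of tested genes. Since the rule sets bounds on P2R, SA and P2R+SA alike, it holds this difference above -0.2 and nothing is read from these shares. This difference also sets libraries of header number 48 against each other, while P2R minus CK lies within 36.

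The count of 29 varied with single libraries. It became 72 when P2R+SA replicate 1 was left out, 8 when replicate 2 and 9 when replicate 3 of that group was. It was 15 without SA replicate 2. Because the spread is estimated over all groups, it was also 17, 15 and 19 without CK replicates 1, 2 and 3, and 19 and 17 without P2R replicates 1 and 3. A fit of the 6 compared libraries alone called 0 members by limma, with 60 at an unadjusted p under 0.05. The median difference was 0.79 without P2R+SA replicate 1, with 113 members above 0, and 0.45 without SA replicate 2, with 108 members above 0.

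A01657 and A07637 had the largest differences between P2R+SA and SA. A01657 measured 8.29, 10.6 and 12.2 FPKM in P2R+SA, against 3.48, 1.65 and 3.25 FPKM in SA, a log2 difference of 1.60 (SE 0.24), and was among the 29 members called higher. Its groups did not overlap. A07637 measured 15.5, 61.3 and 40.1 FPKM in P2R+SA, against 15.8, 5.53 and 13.3 FPKM in SA. Its log2 difference was 1.58 (SE 0.44), it was not among the 29, and its P2R+SA replicate 1 lay at the level of the SA libraries.

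A03279 and A05879 had the smallest differences between P2R+SA and SA. A03279, of 909 bp, was the 1 member below 0, with 52.3, 78.7 and 77.6 FPKM in P2R+SA, against 86.5, 57.7 and 76.1 FPKM in SA. Its log2 difference was -0.08 (SE 0.19), and the groups overlapped. A05879, of 1404 bp, measured 39.0, 54.6 and 48.7 FPKM in P2R+SA, against 54.1, 38.8 and 46.3 FPKM in SA, a log2 difference of 0.03 (SE 0.17). In P2R, A03279 measured 107, 87.1 and 107 FPKM. A05879 measured 68.8, 78.6 and 61.9 FPKM in P2R and was among the 8 members called lower in P2R+SA than there.

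**Figure D3:**
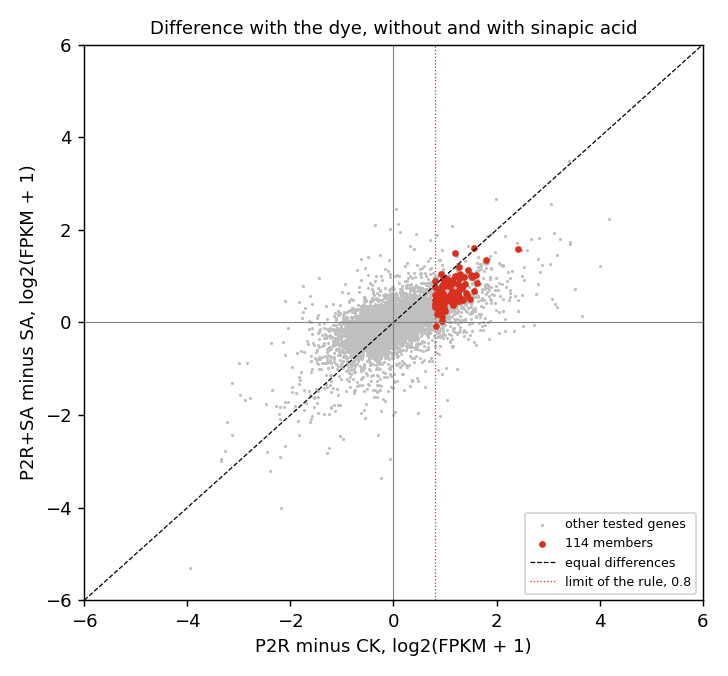
P2R minus CK (horizontal) against P2R+SA minus SA (vertical), both on the log2(FPKM + 1) scale, for the 114 members in red and the other tested genes in grey. The dotted line is the limit of 0.8 and the dashed line marks equal differences. Of the members, 110 lie below the dashed line, with medians of 0.57 on the vertical and 1.01 on the horizontal axis, and 113 of 114 lie above 0 on the vertical axis.

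With sinapic acid alone the members stood slightly above the control on average. Here libraries of header number 48 are set against libraries of number 36, so the compound and a possible time cannot be told apart. SA minus CK ran from -0.26 to 0.40 with a median of 0.21, and 96 members were above 0 and 18 below. Over all tested genes, 45.6% were above 0 and the median was -0.04. Limma called a member with a mean of 455 FPKM higher in SA than in CK, with a log2 difference of 0.30 (SE 0.09). This comparison and P2R minus CK share the CK libraries, so low CK values in a gene raise both. The average hides a split among SA libraries. The median member stood 0.32 above the CK mean in SA replicate 1 and 0.38 above it in SA replicate 3, but at -0.08 in SA replicate 2. SA replicate 3 was above every CK library for 93 members (81.6%, against 35.8% of tested genes). SA replicate 1 was so for 81 (71.1%, against 41.8%). SA replicate 2 was above every CK library for 31 members (27.2%, against 29.1% of tested genes). It was below every one for 48 (42.1%, against 47.9%), so both of its shares were near those of tested genes. Without SA replicate 2 the median difference was 0.34, and 73 of the 114 members stayed under the limit of 0.4.

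The libraries with both compounds split more widely. The median member stood 0.39 above the CK mean in P2R+SA replicate 1, 1.003 above it in replicate 2 and 0.92 above it in replicate 3. The corresponding medians in P2R were 0.95, 1.27 and 0.94. Replicate 1 of P2R+SA thus lay near SA replicates 1 and 3, and replicates 2 and 3 lay near P2R. P2R+SA replicates 2 and 3 exceeded every SA library for 107 and 103 members (93.9% and 90.4%, against 21.1% and 20.4% of tested genes). Replicate 1 did so for 51 (44.7%, against 30.1%). P2R+SA replicate 2 reached at least the lowest P2R library for 79 members (69.3%, against 56.3% of tested genes). Replicate 3 did so for 58 (50.9%, below the 56.2% of tested genes), and replicate 1 for 13 (11.4%, against 66.6%). Nothing is read from these shares, since the rule bounds P2R+SA minus P2R. The median member of P2R+SA was 0.95 above CK when replicate 1 was left out and 0.75 with it.

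**Figure D4:**
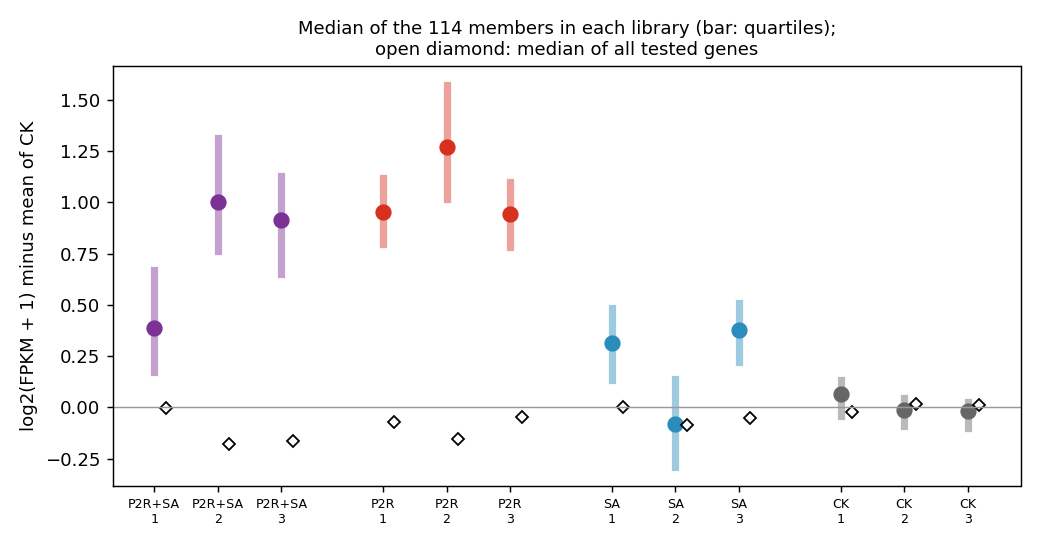
Median (dot) and quartiles (bar) over the 114 members of log2(FPKM + 1) minus the mean of CK in each of the 12 libraries, with the median of all tested genes as an open diamond. P2R+SA replicate 1 stands at 0.39, against 1.003 and 0.92 in the other P2R+SA libraries, and SA replicate 2 at -0.08, against 0.32 and 0.38 in the other SA libraries. The medians of all tested genes stay between -0.18 and 0.02.

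Most members shared this order of libraries, gene by gene. P2R+SA replicate 1 was the lowest of its group in 93 members (81.6%), against 28.0% of all tested genes, for which it was most often the highest (59.8%). Over all tested genes it also stood apart from its group, with a chi-square per degree of freedom of 192 and 219 against replicates 2 and 3, and of 36.2 between replicates 2 and 3. In P2R that value was 83.4 and 85.1 for replicate 2 against replicates 1 and 3, and 28.5 between those. In SA it was 262 between replicates 1 and 2, 214 between 1 and 3 and 215 between 2 and 3. No SA library was thus the only one apart over all tested genes. SA replicate 2 was the lowest of its group in 82 members (71.9%), against 41.6% of tested genes. P2R replicate 2 was the highest of its group in 82 members (71.9%), against 27.3% of tested genes, for which it was most often the lowest (53.1%). All 3 of these placings held at once in 63 members (55.3%) and in 12.02% of tested genes. The rule used group means and not the order of libraries, but those means include these libraries, so the shares are descriptions. The 3 placings were also picked for being common in the members, which by itself favours a higher share there than in tested genes. After median-of-ratios scaling the placings held for 98, 76 and 90 members, against 40.8%, 36.8% and 38.9% of tested genes.

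A minority ran the other way. P2R+SA replicate 1 was the highest of its group in 13 members. Among the named members these were A06081, with 37.8, 29.6 and 25.3 FPKM in P2R+SA replicates 1 to 3, and A09556, whose values are given above. A06081 also differed from the majority in SA, where replicate 1 was the lowest, at 5.57 FPKM, against 13.9 and 18.3 FPKM in replicates 2 and 3.

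**Figure D5:**
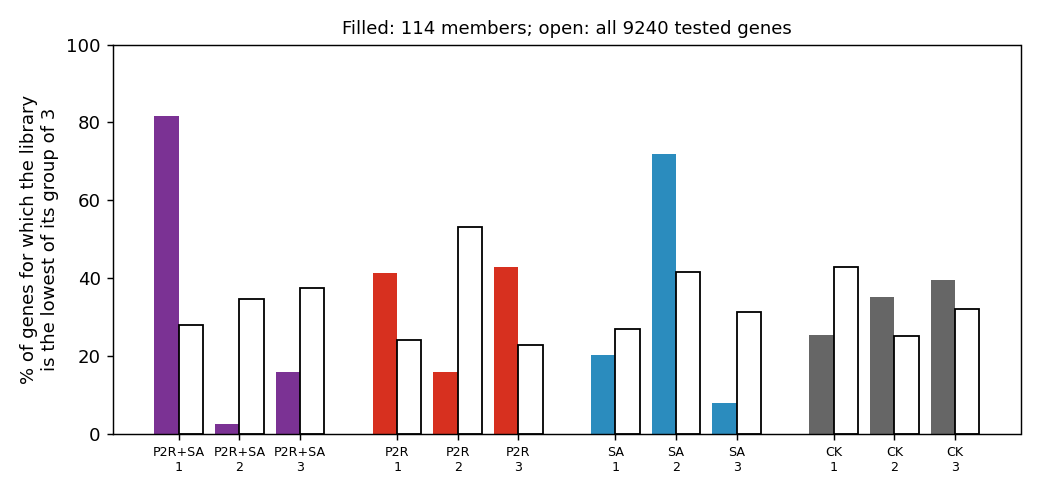
Share of genes for which each library is the lowest of its group of 3, for the 114 members (filled bars) and for all 9240 tested genes (open bars), on an axis from 0 to 100%. P2R+SA replicate 1 is lowest for 81.6% of members against 28.0% of tested genes, and SA replicate 2 for 71.9% against 41.6%.

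The spread between libraries was accordingly wider in the members than in other genes of like level. The median SD of log2(FPKM + 1) was 0.34 in P2R+SA, 0.22 in P2R, 0.32 in SA and 0.11 in CK (n = 3 each). Over all genes averaging 5 to under 1000 FPKM the median SD was 0.21 in P2R+SA, 0.13 in P2R, 0.22 in SA and 0.09 in CK. What differed between the libraries that stood apart is not stated in the labels, and its part in these values was not tested.

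The 88 genes that met every condition but the last give the closest comparison, since only P2R+SA minus P2R separates them from the members. Median P2R minus CK was 1.01 in the members and 1.22 in these 88 genes. Median SA minus CK was 0.21 in the members and 0.04 in the 88 genes, with 96 of 114 and 48 of 88 genes above 0. In P2R+SA replicates 1, 2 and 3 the medians of the 88 genes stood 0.03, 0.51 and 0.30 above the CK mean, the same order of libraries as in the members at a lower level. P2R+SA replicate 1 was the lowest of its group in 93 members (81.6%) and in 56 of the 88 genes (63.6%). The 3 placings held at once in 63 members (55.3%) and in 33 of the 88 genes (37.5%). These differences between the lists were not tested, and the placings were picked from the members. Without P2R+SA replicate 2 the rule kept 84 genes, all of them members, and without P2R+SA replicate 1 it kept 142, of which 110 were members. Without SA replicate 2 it kept 74, of which 73 were members.

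Gene length, which the rule did not use, was close to that of other genes. Coding lengths of the members ran from 204 to 4659 bp with a median of 1322 bp, against 1365 bp for the 7212 genes of the same FPKM range with a known length.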

How the data were processed

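The authors deposited FPKM values as 1 table of the series and as 12 files of single libraries, which agree to within 4.89e-06 FPKM. Per the submitters' processing notes, fastp, HISAT2, HTSeq and R 3.2.0 were used, without stated roles. Genome build, annotation and strand setting: not given in the sources used here. Extraction with TRIzol and library construction with a VAHTS Universal V10 kit are recorded in the labels' protocols. Sample titles gave groups and replicates.

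The members and the lists were chosen with earlier results of these data known. FPKM values of a gene stood in whole-number ratios between libraries, which gave whole fragments for 10272 of 10276 genes (99.96%, tolerance 1e-06) and coding lengths for the 9308 genes with over 50 fragments in a library. These served for depth, length and limma-voom. Libraries of a group differed by more than sampling noise, with a chi-square per degree of freedom of 25.6 or more.

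Genes with at least 1 FPKM in 3 libraries (9240, all members included) were fitted with limma 3.58.1 in R 4.3.3 on log2(FPKM + 1) over all 12 libraries, with an intensity trend. Calls are two-sided at 0.05 after Benjamini-Hochberg adjustment over all tested genes, and rest on replicates that may be technical. The script was tested on simulated data. IDs named in the comparisons are those with the largest and smallest differences per comparison and the highest means, 10 in all. Alternatives were other scalings, pseudocounts, filters, weights, a replicate block and libraries left out. Same-numbered libraries were not taken as paired, since 3 of 18 pairs had correlations of deviations over 0.1. The highest, 0.39 and 0.54, were replicates 1 and 2 of P2R+SA with P2R, where replicate 3 gave -0.28.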

Additional observations from a re-analysis of the deposited data

How the results depend on the processing

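The rule kept 60 genes with a dye limit of 1, 57 with a limit of -0.3 on P2R+SA minus P2R, 180 without SA replicate 1 and P2R+SA replicate 1 together (104 shared with the 114), and 74 to 149 with 1 library left out. Median-of-ratios scaling gave 143, of which 94 were shared. That scaling moved the median of P2R+SA minus CK over all tested genes to -0.0033, against -0.11 as deposited. Members called higher in P2R vs CK numbered 78 to 113 with 1 library left out, within 1.5 times of 109 under all 21 alternatives. The 79 called in P2R+SA vs CK became 52 to 104 with 1 library left out. The alternatives for this comparison were added after seeing the data.

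The 29 members called higher in P2R+SA vs SA became 0 with the compared libraries alone (60 at an unadjusted p under 0.05 in limma), 71 with library quality weights, 76 without SA replicate 1 and P2R+SA replicate 1 together, and 8 to 72 with 1 library left out. The 8 called in P2R+SA vs P2R became 2 after median-of-ratios scaling, 2 after quantile normalization, 4 with limma-voom, 30 with quality weights (22 lower, 8 higher) and 0 to 15 with 1 library left out. With the replicate block, 103, 20, 6 and 75 members were called in P2R vs CK, P2R+SA vs SA, P2R+SA vs P2R and P2R+SA vs CK. The cause of these changes was not tested. The median differences of the members kept their sign under all 16 alternatives run for them. The members were chosen with P2R minus CK of at least 0.8 and P2R+SA minus SA held above -0.2, so these 2 signs are a description. The choice for a large P2R minus CK also favours a negative P2R+SA minus P2R, so that sign is a description too. All 16 alternatives used the same members, chosen with all libraries. With 1 library left out the medians ran from 0.93 to 1.08 for P2R minus CK, 0.45 to 0.79 for P2R+SA minus SA and -0.42 to -0.12 for P2R+SA minus P2R. Fragments in a member's lowest library went down to 51, with a median of 1275 over members, and the part of depth in these values was not tested.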

Other observations

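Most members had no other member next to them by ID. How many such neighbours would arise by chance was not tested. Of the 114, 6 stood in 3 pairs of consecutive IDs, A05465 with A05466, A08260 with A08261 and A10683 with A10684, named here after their values were seen. Whether ID order follows position in the genome is not given in the sources used here. The 205 tested non-members next to a member by ID had a median P2R minus CK of 0.06 on the log2(FPKM + 1) scale, against -0.09 for all tested genes. CK replicate 1 was the highest of its group in 63 members (55.3%), against 26.4% of tested genes, although the median member stood only 0.07 above the CK mean there.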
